A study of Mus musculus with 9 samples.

Results

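The clustered protocadherin genes were examined in the mouse trigeminal ganglion (TG) after injection into the temporomandibular joint (TMJ). Members were all genes of the mRNA table whose symbol marks them as Pcdha, Pcdhb or Pcdhg genes. The rule uses the symbol and no measured value, although the family was picked with earlier results of these data known. Of 57 such symbols in GENCODE M21, 56 were in the table, among 21809 gene symbols in all. Counted by symbol, they comprised 13 alpha, 22 beta and 21 gamma genes, and the remaining symbol, Pcdhgb8, was listed with the noncoding RNAs. The symbol Pcdha11 covers a pair of gene records that were summed together, and no member has the symbol Pcdha10. In this annotation of GRCm38 all lay on the plus strand of chromosome 18, with the alpha genes at 36930184 to 37187661, the beta genes at 37264938 to 37524479 and the gamma genes at 37661793 to 37841873. Expression was read as FPKM, which divides the fragments mapped to a transcript by its length and by the depth of the library, summed over the transcripts of each gene.

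Clustered protocadherins are cell surface adhesion molecules of neurons that bind their own kind on neighbouring membranes. Each alpha or gamma gene supplies a variable exon with its own promoter, coding for the whole extracellular part, which is spliced to constant exons shared by its cluster, whereas beta genes stand alone. A neuron uses only some of the promoters, so that its surface carries an identity used in self-avoidance, axon tiling and synapse formation, and in touch neurons the gamma proteins shape peripheral branches. The C-type genes at the ends of the alpha and gamma clusters are used more evenly from cell to cell.

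RNA came from 8-week-old male wild-type C57BL/6 mice in 9 libraries, each a pool of unilateral TG punches from 3 mice. The control mice received 10 µl of saline (saline libraries 1 to 3, placed by the labels on day 3). The treated mice received 10 µl of complete Freund's adjuvant (CFA) at 5 mg/ml, an emulsion that causes joint inflammation, and their TG was taken on day 3 (CFA3D libraries 1 to 3) or day 6 (CFA6D libraries 4 to 6). The study asked which RNAs of the TG change in this model of temporomandibular disorder pain. Both CFA groups were set against the same saline libraries, so these comparisons are not independent. No saline library is placed on day 6, so in every comparison of day 6 with saline the CFA and the day cannot be told apart.

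The depth implied by the FPKM, estimated from the step of the lowest values, was 30.0 to 42.2 M read pairs per library. It is not the number of sequenced reads that the paper reports. All 13 sensory neuron markers were expressed, and they summed to 2662 to 3323 FPKM in saline, 3143 to 3758 in CFA3D and 3320 to 4011 in CFA6D. Some libraries stood apart in RNA of other tissues. Pituitary hormone genes summed to 10610 FPKM in saline 3 and to 8.67 to 1113 in the other libraries. Skeletal muscle genes reached 135.8 FPKM in saline 2 and 60.3 in CFA6D 6, and were at 1.11 to 30.5 elsewhere. Whole tissue was sequenced, so a smaller share of neurons and less RNA per neuron cannot be told apart.

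Most clustered protocadherins were present at low levels, and the 3 clusters together came to 102.7 to 124.7 FPKM. The gamma cluster held 52.7 to 60.2% of this sum, the alpha cluster 19.98 to 26.7% and the beta cluster 17.6 to 21.8%. The median gene had 2.62 FPKM in the gamma cluster, 1.33 in the alpha cluster and 0.841 in the beta cluster. Below 1 FPKM stood 13 of the 22 beta genes, but only 3 of the 13 alpha and 2 of the 21 gamma genes. Pcdhac2, at 10.6 FPKM, was the highest member and was above 67.9% of all gene sums tested. It was followed by Pcdhgc3 (8.84 FPKM), Pcdhgb1 (8.46), Pcdhga9 (5.72) and Pcdhac1 (4.12), all means over the 9 libraries.

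**Figure D1:**
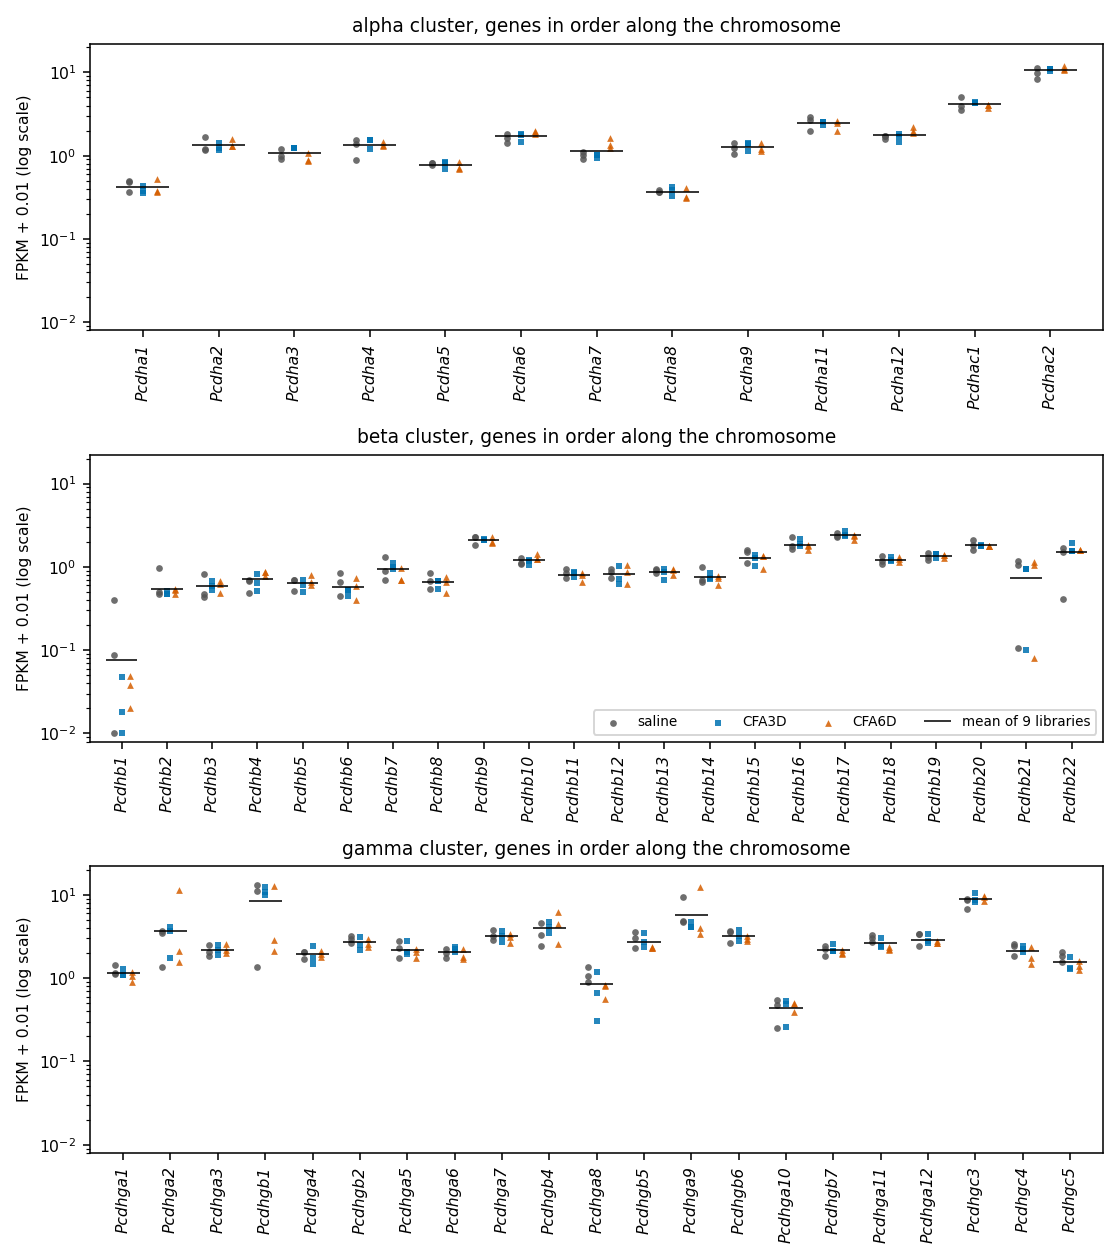
Level of each clustered protocadherin gene in each library, as FPKM + 0.01 on a log axis, with the genes of each cluster in chromosomal order. Points are libraries (circles saline, squares CFA3D, triangles CFA6D) and lines are means of 9; Pcdhac2 stands highest at a mean of 10.6 FPKM, and Pcdhb21, Pcdhb22, Pcdhgb1, Pcdhga2 and Pcdhga9 have libraries far from their mean.

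In the alpha cluster the C-type genes gave 48.6 to 53.5% of the summed FPKM. Pcdhac2, which is known for the tiling of serotonergic axons, had 11.2, 9.84 and 8.41 FPKM in saline 1 to 3. It had 11.0, 10.5 and 11.1 FPKM in CFA3D 1 to 3 and 11.9, 10.8 and 11.0 in CFA6D 4 to 6. Saline 3 was lowest, and saline 1 lay within the CFA values, so the groups overlapped. Pcdhac1 had 5.00, 3.98 and 3.50 FPKM in saline, 4.34, 4.26 and 4.25 in CFA3D, and 4.004, 3.73 and 4.03 in CFA6D, again with saline 1 highest and saline 3 lowest. Of the other alpha symbols Pcdha11 was highest at 2.44 FPKM, but this sum combines a pair of gene records that carry the symbol, at 1.02 and 1.41 FPKM. Both were below Pcdha12 (1.77) and Pcdha6 (1.72), so the rank rests on the sum. The lowest was Pcdha8, which ranged from 0.304 to 0.406 FPKM.

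Beta genes lay close together, and 18 of the 22 had only single-exon transcripts. The highest were Pcdhb17 (2.11 to 2.72 FPKM), Pcdhb9 (1.81 to 2.30) and Pcdhb16 (1.57 to 2.25). Pcdhb1, the gene nearest to the alpha cluster, was the only member under the filter of 0.1 FPKM on the mean and was not tested. It was listed at 0 in saline 1 and CFA3D 1 and at up to 0.0772 FPKM in 6 other libraries, but had 0.387 in saline 3. Saline 3, the library with the most pituitary hormone RNA, was also the highest library for 10 of the 22 beta genes, Pcdhb1, Pcdhb2, Pcdhb3, Pcdhb6, Pcdhb7, Pcdhb8, Pcdhb14, Pcdhb16, Pcdhb18 and Pcdhb19. It was highest for 0 of the 13 alpha genes and for 5 of the 21 gamma genes. CFA6D 4, with the next highest pituitary sum (1113 FPKM), was highest for 2 of the 22 beta and 6 of the 13 alpha genes. How many of all gene sums were highest in saline 3 was not counted, so the count is not read as a trait of the beta genes. The part of the pituitary RNA in these values was not tested.

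In the gamma cluster the C-type genes gave 18.3 to 21.4% of the summed FPKM. Pcdhgc3, which acts in dendrite arborization through Axin1, was at 8.68, 6.84 and 8.97 FPKM in saline. It was at 8.72, 10.5 and 8.13 FPKM in CFA3D and at 8.47, 9.50 and 9.70 in CFA6D, so that saline 2 was lowest and the groups overlapped. Pcdhgc4, which is needed for the survival of developing neurons, had 2.42, 1.86 and 2.55 FPKM in saline, 2.22, 2.41 and 2.07 in CFA3D, and 1.49, 2.33 and 1.73 in CFA6D. Pcdhgc5, a partner of GABA-A receptors, had 1.82, 1.57 and 2.03 FPKM in saline, 1.30, 1.79 and 1.27 in CFA3D, and 1.24, 1.37 and 1.58 in CFA6D. The CFA libraries of Pcdhgc5 were mostly lower than saline, but CFA3D 2 and CFA6D 6 lay above saline 2. The lowest gamma gene was Pcdhga10, at 0.239 to 0.539 FPKM.

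Over all genes of a cluster, levels rose with position in the beta cluster but not in the gamma cluster. In the alpha cluster the correlation includes the C-type genes at its end. Spearman's rho between the order of the genes along the chromosome and their mean FPKM was 0.67 over 13 alpha genes and 0.72 over 22 beta genes (0.68 without Pcdhb1). It was -0.02 over 21 gamma genes. The C-type genes Pcdhac1 and Pcdhac2 come last in the alpha order (12 and 13) and rank 2 and 1 in level. The alpha value was not computed without them, so a rise among the other alpha genes is not shown. These are descriptions across genes that share libraries and, in the alpha and gamma clusters, exons.

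How reads in shared exons were assigned to genes is not stated in the sources used here, and it bears on any level of an alpha or gamma gene. Of all stretches of 100 bases in the main transcript of each member, a median of 55.2% (range 47.5 to 96.5%) for alpha genes also occurred in a transcript of another gene. For gamma genes this median was 43.9% (0 to 64.0%), and for beta genes 0.207% (0 to 7.73%). Transcripts annotated as retained introns gave 15.1 to 20.3% of the gamma sum and 1.27 to 4.06% of the alpha sum. For Pcdhgb5, Pcdhga12, Pcdhgc4 and Pcdhgc5 such a transcript was the highest by mean FPKM.

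The first comparison was of the cluster sums. The alpha genes summed to 30.3, 26.8 and 24.5 FPKM in saline, to 28.7, 27.7 and 29.5 in CFA3D, and to 30.9, 28.0 and 28.6 in CFA6D. The group means were 27.2 ± 2.94, 28.6 ± 0.901 and 29.2 ± 1.55 FPKM (SD, n = 3 each). The beta means were 23.5 ± 2.81, 23.2 ± 1.10 and 23.0 ± 0.891 FPKM, and the gamma means 65.0 ± 9.48, 65.8 ± 8.08 and 62.6 ± 2.53. In each cluster the groups overlapped, and the log2 difference of the means from saline was 0.07 and 0.10 for alpha on days 3 and 6, -0.02 and -0.03 for beta, and 0.02 and -0.06 for gamma. Single libraries set the direction for beta and gamma. Without saline 3 the beta differences became 0.086 and 0.075, and they were also above 0 without CFA3D 2 on day 3 (0.02) and CFA6D 6 on day 6 (0.003). The gamma difference on day 3 became -0.10 without saline 2 and -0.09 without CFA3D 2. On day 6 it became -0.17 without saline 2 and 0.02 without saline 3. For alpha they were 0.003 and 0.03 without saline 3 and were 0.16 and 0.19 without saline 1. The saline SDs were the largest in each cluster, with saline 3 lowest for alpha and highest for beta, and saline 2 lowest for gamma, where 10 of the 21 genes had their lowest value.

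**Figure D2:**
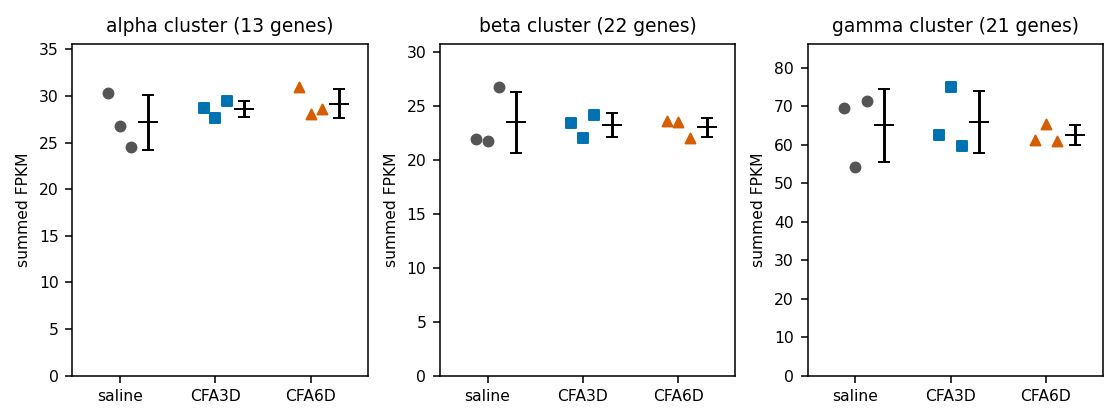
Summed FPKM of the alpha, beta and gamma clusters in each library, on axes that start at 0. Points are libraries, and bars beside them are the mean and 1 SD of 3 libraries; in each cluster the ranges of the 3 groups overlap.

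Gene by gene, no clustered protocadherin was called in any comparison. A call needed an unadjusted p under 0.05 and a change of at least 1 on the log2 scale in limma, which was fitted over the 16096 gene sums that averaged 0.1 FPKM or more, 55 of them members. On day 3 against saline 0 of the 55 members were called, where 0.342% of all gene sums were. On day 6 it was 0 members against 0.584%, on day 6 against day 3 it was 0 against 0.77%, and with both CFA days pooled against saline 0 against 0.292%. No member, and none of the 16096 gene sums, had a Benjamini-Hochberg adjusted p under 0.05 in these 4 limma comparisons.

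At an unadjusted p under 0.05 alone, 0 members passed on day 3 (4.45% of all gene sums), 2 on day 6 (11.1%), 1 on day 6 against day 3 (7.39%) and 1 with the CFA days pooled (8.19%). The median log2 fold change of the 55 members was -0.02 on day 3, -0.07 on day 6, -0.02 on day 6 against day 3 and -0.03 with the days pooled. Over all gene sums these medians were 0.05, 0.03, -0.02 and 0.04. The change was under 0.5 in size for 52 members on day 3 and 53 on day 6, with a median standard error (SE) of 0.19. Fold changes are of log2(FPKM + 0.1), which understates those of the lowest genes.

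**Figure D3:**
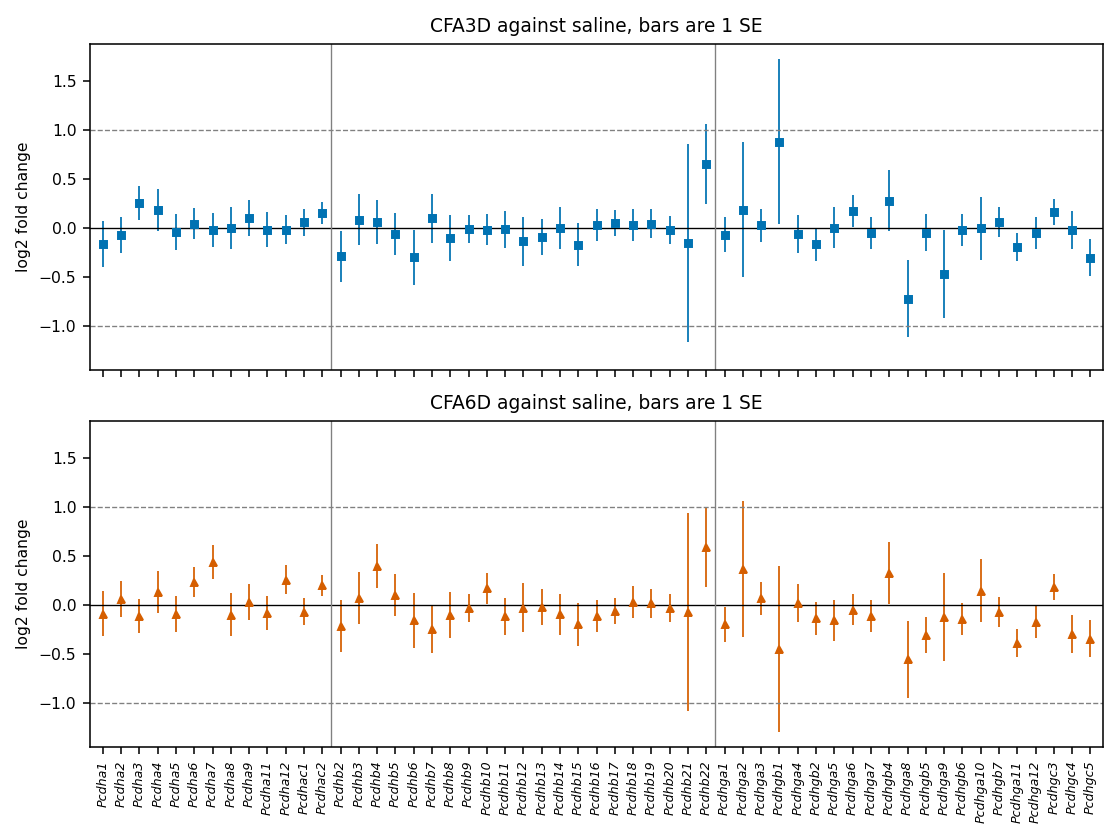
Log2 fold change of log2(FPKM + 0.1) for 55 clustered protocadherin genes on day 3 (squares) and day 6 (triangles) after CFA against saline, in chromosomal order with vertical lines between the clusters. Bars are 1 SE from limma, and dashed lines mark a change of 1; every point lies between the dashed lines, and the widest bars belong to Pcdhb21, Pcdhgb1 and Pcdhga2.

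On day 3 the smallest p-values belonged to Pcdhga8, Pcdhgc5 and Pcdhb22. Pcdhga8, a gamma A gene, had 1.06, 1.37 and 0.901 FPKM in saline and 0.660, 1.18 and 0.292 in CFA3D. CFA3D 2 lay among the saline libraries and CFA3D 3 was far below all others, and the log2 fold change was -0.72 (SE 0.39, adjusted p = 0.997). It rested on single libraries: without CFA3D 3 it was -0.28, and without CFA3D 2 it was -1.13 (SE 0.34) and met the rule for a call, although its adjusted p was 1.00. Pcdhgc5 had a log2 fold change of -0.30 (SE 0.19, adjusted p = 0.997). For Pcdhb22 it was 0.65 (SE 0.41, adjusted p = 0.997), with values of 1.67, 0.402 and 1.49 FPKM in saline and 1.54, 1.92 and 1.55 in CFA3D, and it went to 0.07 without saline 2.

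Of the C-type genes, the limma fold changes on days 3 and 6 were 0.15 and 0.20 for Pcdhac2 (SE 0.11), and 0.16 and 0.18 for Pcdhgc3 (SE 0.13). They were 0.06 and -0.07 for Pcdhac1 (SE 0.14), and -0.02 and -0.30 for Pcdhgc4 (SE 0.19). All of these adjusted p-values were 0.547 or higher. Leaving out 1 library moved Pcdhac2 to between 0.05 and 0.25 on day 3 and between 0.09 and 0.30 on day 6, lowest without saline 3 and highest without saline 1. Pcdhgc3 moved to between 0.04 (without saline 2) and 0.24 (without CFA3D 3) on day 3, and between 0.06 (without saline 2) and 0.25 (without saline 3) on day 6. For Pcdhgc4 on day 6 the values ran from -0.47 without CFA6D 5 to -0.16 without CFA6D 4.

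On day 6 the alpha gene Pcdha7 and the gamma gene Pcdhga11 had unadjusted p-values under 0.05. Pcdhga11 had 3.29, 2.68 and 3.01 FPKM in saline and 2.38, 2.18 and 2.21 in CFA6D. All 3 day 6 libraries were below all saline libraries, with a log2 fold change of -0.39 (SE 0.14, adjusted p = 0.347). On day 3 it had 2.43, 3.02 and 2.39 FPKM, and CFA3D 2 lay within the saline range.

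Pcdha7 had 1.02, 0.890 and 1.09 FPKM in saline, 1.02, 0.921 and 1.01 in CFA3D, and 1.61, 1.21 and 1.35 in CFA6D. The day 6 libraries were above the other 6, with a log2 fold change of 0.43 against saline (SE 0.17, adjusted p = 0.398) and of 0.46 against day 3 (adjusted p = 0.641). The third smallest p on day 6 was that of Pcdhgc5, at -0.35 (SE 0.19, adjusted p = 0.542). Pooling the CFA days, the 3 smallest p-values were those of Pcdhga11 (-0.29, adjusted p = 0.581), Pcdhgc5 (-0.33, adjusted p = 0.67) and Pcdhga8 (-0.64, adjusted p = 0.688).

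Between the CFA days, Pcdha3 and Pcdha12 followed Pcdha7. Pcdha3 had 1.24, 1.22 and 1.24 FPKM on day 3 and 1.08, 0.845 and 0.881 on day 6, a log2 fold change of -0.37 (SE 0.18, adjusted p = 0.676). All its day 6 libraries were below those of day 3, and saline lay across both, from 0.890 to 1.18 FPKM. Pcdha12 had 1.44, 1.70 and 1.79 FPKM on day 3 and 1.97, 1.86 and 2.18 on day 6, with no overlap and a log2 fold change of 0.27 (adjusted p = 0.692).

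Members whose groups did not overlap were also counted beside the share over all gene sums. On day 3 only Pcdha3 had all CFA3D libraries above all saline libraries, 1 of 55 members where 9.13% of all gene sums did not overlap and 7.01% were higher. On day 6 it was 6 members where 16.2% did not. Pcdha6, Pcdha7, Pcdha12 and Pcdhb4 were higher than saline (10.7% of all gene sums), and Pcdhga8 and Pcdhga11 lower (5.5%). Between the days it was 8 members (16.7% of all gene sums), 4 higher (6.62%) and 4 lower (10.1%), and with the CFA days pooled 0 members (3.88%).

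Single transcripts gave the same count. Of 87 transcripts of member genes 6 were listed at 0 in every library and 75 were tested, among 66562 tested in the table. In limma 0 of them were called on day 3 (2.19% of all transcripts), on day 6 (2.57%), between the days (2.23%) or with the CFA days pooled (1.86%). At p under 0.05 alone there were 0 (4.68% of all transcripts), 2 (6.81%), 1 (5.42%) and 1 (5.78%). Pcdhga11, Pcdha7 and Pcdha3 are each measured by a single main transcript, and their transcript values repeat those of the gene.

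The transcripts of Pcdhgc5 differed in direction. Its retained-intron transcript ENSMUST00000192875 had 1.59, 1.20 and 1.75 FPKM in saline, 0.948, 1.28 and 0.816 in CFA3D, and 0.617, 0.962 and 1.28 in CFA6D. Its coding transcript ENSMUST00000055935 had 0.226, 0.370 and 0.282 FPKM in saline, 0.352, 0.507 and 0.457 in CFA3D, and 0.460, 0.410 and 0.305 in CFA6D. CFA3D 1 and CFA6D 6 lay within its saline range. The limma log2 fold changes were -0.54 (SE 0.29) and 0.46 (SE 0.26) on day 3, both with an adjusted p of 0.989. The retained-intron transcript was at -0.65 on day 6 (adjusted p = 0.736) and at -0.60 with the days pooled (adjusted p = 0.846). The coding transcript was at 0.33 on day 6 (adjusted p = 0.849) and at 0.39 with the days pooled (adjusted p = 0.882).

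A few members differed widely between libraries of the same group. The median SD within groups was 0.193 on the log2 scale for the 55 members, and 0.211 for the 9478 gene sums in the same range of levels. Pcdhb21 (SD 1.51), Pcdhgb1 (1.29) and Pcdhga2 (1.04) were the most variable members and exceeded 99.3%, 98.7% and 97.4% of those gene sums. Pcdhga9 (0.671), Pcdhb22 (0.59) and Pcdhga8 (0.544) followed. These genes are singled out after their values were seen.

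Pcdhgb1, Pcdhga2 and Pcdhga9 took turns as the highest gamma gene. Pcdhgb1 had 11.1, 1.37 and 13.1 FPKM in saline, 9.86, 12.4 and 10.7 in CFA3D, and 12.7, 2.13 and 2.86 in CFA6D. It was the top gamma gene in 6 libraries and was low in saline 2, CFA6D 5 and CFA6D 6. In saline 2 and CFA6D 5 the top gamma gene was Pcdhga9, with 9.54 and 12.3 FPKM, while it had 3.36 to 4.80 in the other libraries. In CFA6D 6 the top gamma gene was Pcdhga2, with 11.4 FPKM against 1.37 to 4.14 elsewhere. Pcdhgc3 was second in all 9 libraries.

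The sum of Pcdhgb1, Pcdhga2 and Pcdhga9 was far steadier than its parts. The highest library was 9.53 times the lowest for Pcdhgb1, 8.29 times for Pcdhga2 and 3.65 times for Pcdhga9. Their sum ran from 14.3 to 21.4 FPKM, a ratio of 1.49, and made up 24.4 to 30.5% of the gamma cluster in each library. The low libraries came from both saline and CFA6D, and the log2 fold change of Pcdhgb1 between the CFA days, -1.33 with an adjusted p of 0.727 in limma, was the only one among the members of at least 1 in size. Saline 2 was not in that contrast but entered the pooled spread, and without it the change between the days passed an unadjusted p of 0.05. Against saline the day 6 value of Pcdhgb1 then became -1.47 and passed too. Leaving out CFA6D 4 the change between the days was -2.11 and passed, and all adjusted p-values of Pcdhgb1 in these fits were 0.554 or higher.

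**Figure D4:**
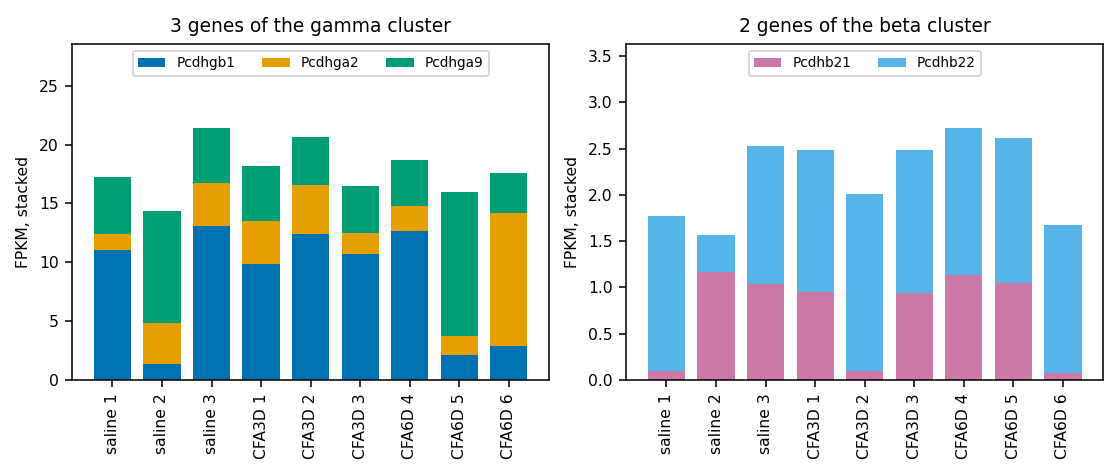
FPKM of Pcdhgb1, Pcdhga2 and Pcdhga9 (left) and of Pcdhb21 and Pcdhb22 (right) in each library, stacked from 0. The left columns total 14.3 to 21.4 FPKM although Pcdhgb1 falls to 1.37 in saline 2, and the right columns total 1.57 to 2.01 in the 4 libraries where Pcdhb21 or Pcdhb22 is low and 2.48 to 2.73 in the other 5.

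The neighbouring beta genes Pcdhb21 and Pcdhb22 also dropped in single libraries, but here the sum dropped too. Pcdhb21 had 0.0975 FPKM in saline 1, 0.0908 in CFA3D 2 and 0.0714 in CFA6D 6, and 0.941 to 1.17 in the other 6 libraries. Pcdhb22 had 0.402 FPKM in saline 2 and 1.49 to 1.92 in the other 8. Their sum was 1.57 to 2.01 FPKM in the 4 libraries with a drop and 2.48 to 2.73 in the other 5. The annotation has them overlap, with 9.67% of the bases of Pcdhb21 and 6.89% of those of Pcdhb22 lying in exons of another gene.

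In Pcdhga1 the transcripts of the gene took turns. The single-exon transcript ENSMUST00000194888 ranged from 0.365 to 1.26 FPKM, and the spliced transcript ENSMUST00000194190 from 0.0132 to 0.828. The spliced transcript was lowest in CFA3D 1, CFA3D 3 and saline 2, and in these 3 libraries the single-exon transcript was highest. The gene sum ran only from 0.899 to 1.41 FPKM.

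The main transcripts of Pcdhgb1, Pcdhga2 and Pcdhga9 had 44.8 to 45.1% of their bases in exons of other genes. Over the gamma transcripts tested, the median SD within groups was 0.39 on the log2 scale for the 21 with over 40% of shared bases, and 0.37 for the 9 with at most 5%. The 6 most variable transcripts of the clusters were those of Pcdhb21, Pcdhgb1, Pcdhga9, Pcdhga1, Pcdhgb5 and Pcdhga2. Of these, Pcdhb21 was the only one under 40% of shared bases, and the part of read assignment in these differences was not tested.

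The order of the members was close between libraries over all clusters, and looser within the beta and gamma clusters. Spearman's rho between pairs of libraries over the 55 members was 0.866 to 0.964 within groups and 0.880 to 0.964 between groups. Without the 5 members of largest spread it was 0.924 to 0.975 within and 0.913 to 0.970 between groups. In the beta cluster alone it was 0.633 to 0.947 within and 0.570 to 0.935 between groups. In the gamma cluster it was 0.595 to 0.962 within and 0.617 to 0.968 between groups, and without Pcdhgb1, Pcdhga2 and Pcdhga9 0.868 to 0.953 within and 0.835 to 0.963 between. The members left out were picked for their spread in these same libraries, so the closer order without them is largely built in. Level differences between the clusters add to the values over all members. The points of each correlation are genes, which share the library and its depth.

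Pcdhac2 in the alpha cluster and Pcdhgc3 in the gamma cluster had a higher share of the sum in every CFA library than in any saline library. Pcdhac2 made up 37.0, 36.8 and 34.3% of the alpha sum in saline, 38.4, 38.0 and 37.6% in CFA3D, and 38.6, 38.4 and 38.4% in CFA6D. All 6 CFA libraries were above the 3 saline libraries, by at least 0.547 percentage points. Pcdhgc3 made up 12.5, 12.6 and 12.6% of the gamma sum in saline, 13.9, 14.0 and 13.6% in CFA3D, and 13.8, 14.5 and 15.9% in CFA6D. Here too all CFA libraries were above saline, by at least 0.957 percentage points.

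These shares were looked at after the values were seen, over all 56 members, and are given with no test. Both CFA days lay apart from saline in 4 of the 56 members (7.14%, where the FPKM of 3.88% of all gene sums did), which were Pcdhac2 and Pcdhgc3, higher, and Pcdhga11 and Pcdhgc5, lower. On single days the shares did not overlap with saline in 6 members (10.7%) on day 3 and 9 (16.1%) on day 6, near the 9.13% and 16.2% of all gene sums whose FPKM did not overlap. Shares of a cluster are tied to each other, since a larger share of 1 gene leaves less for the rest. Without any single library the CFA mean stayed above the saline mean, by 1.32 to 2.66 percentage points for Pcdhac2, lowest without saline 3, and by 1.41 to 1.87 for Pcdhgc3. Of the 13 sensory neuron markers, 2 had a p under 0.05 in limma on day 3 and 5 on day 6, all higher (3.65% and 8.22% of all gene sums were). Their log2 fold change was above 0 for 13 of 13 on day 3 and for 12 of 13 on day 6. The medians were 0.20 and 0.19, where those of all gene sums were 0.05 and 0.03. The summed FPKM of these markers overlapped between the groups, with saline 1 (3323) above CFA3D 2 (3143) and CFA6D 5 (3320). Their part in these shares was not tested.

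**Figure D5:**
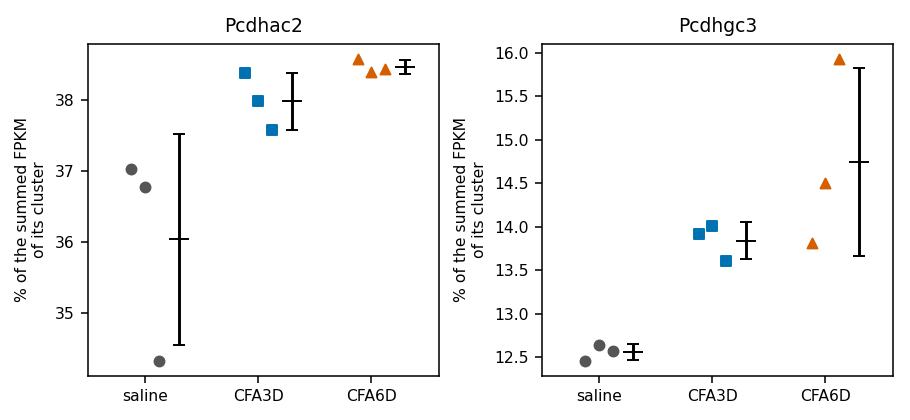
Share of Pcdhac2 in the summed FPKM of the alpha cluster (left) and of Pcdhgc3 in that of the gamma cluster (right), in percent, on axes that do not start at 0. Points are libraries, and bars are the mean and 1 SD of 3; the CFA libraries lie at 37.6 to 38.6% and 13.6 to 15.9%, and the saline libraries at 34.3 to 37.0% and 12.5 to 12.6%.

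Other protocadherin genes lie outside the clusters. Of 12 tested, 1 was higher at p under 0.05 in limma on day 3 (3.65% of all gene sums were) and 3 on day 6 (8.22%), and 0 were lower or called. Pcdh10, which binds the actin-regulating WAVE complex, had 2.93, 3.61 and 3.02 FPKM in saline, 4.27, 4.15 and 4.76 in CFA3D, and 5.02, 4.26 and 5.23 in CFA6D. All 6 CFA libraries were above saline. The log2 fold change was 0.45 on day 3 (SE 0.13, adjusted p = 0.997) and 0.59 on day 6 (adjusted p = 0.153). Pcdh1, an adhesion molecule also found in epithelia, was at 15.6 to 16.2 FPKM in saline and 18.8 to 23.3 in CFA6D, a log2 fold change of 0.41 (SE 0.10, adjusted p = 0.168). On day 3 it was at 0.20 (adjusted p = 0.997).

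Factors that set up the clusters were looked at as well, in a list of 16 genes (CTCF, cohesin and its loader, DNA methylation and heterochromatin). In limma 0 passed p under 0.05 on day 3 (4.45% of all gene sums did), on day 6 (11.1%) or with the days pooled (8.19%). Among 16 genes a count of 0 is not far from these shares, so it is not read as a result about these factors. Setdb1, a histone methyltransferase that acts on the chromatin of this locus, had the smallest p on both days, at a log2 fold change of 0.19 (SE 0.10, adjusted p = 0.997) on day 3 and 0.16 (adjusted p = 0.628) on day 6. Next were Mau2, of the cohesin loader, on day 3 (0.14, adjusted p = 0.997) and Stag1, a cohesin subunit, on day 6 (-0.13, adjusted p = 0.69).

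Of 25 genes for partners and processing of these proteins, 1 was higher at p under 0.05 on day 3 (3.65% of all gene sums were) and 6 on day 6 (8.22%) in limma, and 0 were lower or called. Ret, the receptor tyrosine kinase that forms complexes with clustered protocadherins, had 76.2, 73.8 and 61.3 FPKM in saline, 84.6, 87.1 and 91.5 in CFA3D, and 110.2, 88.8 and 93.8 in CFA6D. All CFA libraries were above saline, at 0.32 on the log2 scale on day 3 (SE 0.11, adjusted p = 0.997) and 0.47 on day 6 (adjusted p = 0.161). Cyfip2 and Wasf1, both of the WAVE complex, which alpha protocadherins can bind, were at 0.44 (SE 0.09, adjusted p = 0.124) and 0.60 (SE 0.13, adjusted p = 0.153) on day 6. Rac1, the GTPase upstream of that complex, was at 0.47 on day 3 (SE 0.23, adjusted p = 0.997), with saline 1 lowest of all libraries at 15.6 FPKM. Ret is also a gene of sensory neurons, and the sensory neuron markers gave 2 and 5 of 13 at p under 0.05. Their part was not tested.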

How the data were processed

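The authors deposited FPKM values per transcript of 9 TG libraries, with 1 table each for mRNA, lncRNA and other noncoding RNA, and 0 per-sample columns were left out. The paper's methods name rRNA depletion, a stranded kit, trimming, GRCm38 and CLC Genomics Workbench. The submitters' processing notes instead name Bowtie 0.12.2 and mm8, and the labels a different TruSeq kit, so the mapping behind the FPKM is uncertain. Strand use and the assignment of shared reads are not given in the sources used here.

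Transcripts were joined by ID to GENCODE M21 (101539 of 102122 matched), and FPKM was summed by symbol. Values were tested as log2(FPKM + 0.1) in limma 3.58.1 (R 4.3.3; 3 groups, no covariate, empirical Bayes with trend, mean of at least 0.1 FPKM), with Benjamini-Hochberg adjustment over the whole table. An exact permutation test of 3 against 3 libraries cannot go below 0.1, so none is given. The script was tested on simulated data. The worth of 1 read pair came from the step of low FPKM times length (0.0237 to 0.0333 FPKM for 1 kb). Tables and plots used Python 3.11.15. Libraries are pools of 3 mice, so p-values measure the spread between pools.

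The gene family and the lists were chosen with earlier results of these data known; its members follow from their symbols. The genes named are the C-type genes, the 3 highest and the lowest of each cluster, any member called, the 3 smallest p-values of each comparison and, in other lists, the 2 smallest. Features singled out otherwise are marked. Alternatives were pseudocounts of 0.01 and 1, a mean of at least 1 FPKM, no filter, 2 scalings, fits of only the groups compared, no trend, no fold minimum, the highest transcript, the replicate number as a block, and leaving out each library. No sequence is printed.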

Additional observations from a re-analysis of the deposited data

Results flagged for a closer look

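Noncoding genes annotated within the span of the clusters are held in the lncRNA and other noncoding tables, which the comparisons above do not use. Of 23 such genes, 12 had at least 3 read pairs in every library, and 4 of them averaged 1 FPKM or more. Gm26672, a noncoding gene on the minus strand within the gamma cluster, had a mean of 4.44 FPKM over the 9 libraries (3.49 to 5.65), more than the median gamma gene. Pcdhgb8, a gamma symbol annotated as a polymorphic pseudogene, had 1.62 FPKM (0.972 to 2.66). BC037039, on the minus strand within the gamma cluster, had 1.16 FPKM (0.805 to 1.76). Gm10544, on the minus strand within the alpha cluster, had 1.01 FPKM (0.684 to 1.51). The minus-strand genes lie across genes of the plus strand, and since the use of strand in counting is not settled, their reads and those of the protocadherins cannot be told apart.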

How the results depend on the processing

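The counts of 0 members called held under both other pseudocounts, both filters, both scalings, the fit without trend, the highest transcript and fits of only the groups compared. With no fold minimum the gene counts were 2 on day 6, 1 between the days and 1 pooled, and the transcript counts were 2, 1 and 1. Leaving out each library gave 0 to 1 genes called on day 3, on day 6 and between the days, and 0 to 2, 0 to 1 and 0 to 2 transcripts. The genes were Pcdhga8 on day 3 without CFA3D 2, and Pcdhgb1 on day 6 without saline 2 and between the days without saline 2 or CFA6D 4. The transcripts were those of Pcdhga8 and Pcdha4 on day 3 without CFA3D 2, of Pcdhgb5 on day 6 without CFA6D 6, and of Pcdhga1 (both) without CFA3D 2 and Pcdhgb1 without CFA6D 4 between the days. All were named after their values were seen, all adjusted p-values were above 0.05, and the cause was not tested. Besides the cluster sums given above, changes near 0 turned direction for Pcdhac1, to -0.057 on day 3 without saline 3 (range over omitted libraries -0.057 to 0.19) and to 0.069 on day 6 without saline 1 (-0.18 to 0.069). For Pcdhgc4 on day 3 they turned to 0.03 without saline 1, 0.068 without saline 3, 0.03 without CFA3D 3 (range -0.15 to 0.068) and 0.10 by its highest transcript.

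Saline and CFA3D share the replicate numbers 1 to 3, but the deviations of same-numbered libraries correlated at only 0.09, -0.08 and 0.03. These values show no pairing, and the labels do not say whether same-numbered libraries were handled together. With the replicate number as a block 0 genes and 0 transcripts were called on day 3, and Pcdhga8 was at -0.72. The lowest value of a tested member stood for about 12.8 read pairs (Pcdhb21 in CFA6D 6), whereas Pcdhb1 had none in 2 libraries.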
